A study of Mus musculus with 4 samples.

Results

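Notch receptors, their ligands, the DNA-binding mediator and coactivators of the pathway, and a classical target gene were examined for FOXL2 binding in the fetal mouse ovary. The 10 genes were taken by name, not by any measured value, but with earlier results of these data known. They are the receptors Notch1, Notch2, Notch3 and Notch4, the ligands Jag1 and Jag2, the mediator Rbpj, the coactivators Maml2 and Maml3, and the target Hes1. They are 10 of 21883 protein-coding genes on chromosomes 1 to 19, X and Y. For each gene, FOXL2 peaks with their centre inside the gene or within 50 kb of either end were taken. FOXL2, a forkhead transcription factor of the granulosa lineage, was mapped by ChIP-seq, in which DNA bound by a protein is recovered with an antibody and sequenced. Chromatin came from E14.5 ovaries of the CD1 strain (XX gonads, parted from the mesonephros), with 2 FOXL2 ChIP samples, 2 input samples without antibody, and different pools of 80 to 100 ovaries per ChIP. No other genotype, treatment or age was part of the design, and whole ovaries mix supporting, germ, stromal and vascular cells. A single list of 11438 peaks, each 300 bp wide, stands for both ChIP samples.

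Notch signalling passes between touching cells. Jagged and Delta-like ligands on a cell bind Notch receptors on its neighbour, the receptor is cut, and its intracellular part enters the nucleus. There it joins RBPJ, which sits on DNA, and Mastermind-like coactivators, and genes of the Hes and Hey families are switched on. In the ovary the pathway is known for the contact between germ cells, which carry Jagged ligand, and granulosa cells, which carry Notch receptor, when follicles form.

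The peak list gave positions alone, with no height, score or value per replicate. The read depth is therefore unknown, no value below has a replicate error, and no test between groups could be made. The labelled tissue could not be checked against marker genes, since positions of binding carry no level of expression. A gene without a peak may hold binding under the authors' threshold. Of the 11435 peaks on the chromosomes used, 11085 lay on chromosomes with annotated transcription starts in the RefSeq promoter table of GRCm38.p6, the assembly that mm10 denotes. Of these, 6968 (62.9%, exact 95% binomial interval 62.0 to 63.8%, peaks taken as independent) had their centre within 1 kb of a start. At those starts, 5246 centres (75.3%) lay downstream, and the median position was 131 bp downstream (quartiles 3 and 262 bp).

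Sequence was at hand only for promoters, from 250 bp before to 50 bp after an annotated start, of which 11 were listed for 9 of the 10 genes. Most peaks of the members lay outside these promoters. Peaks reached into the promoters of Maml3, Notch2 and Rbpj, which are 3 of the 11, and overlapped them by 168, 41 and 40 bp. These 3 are printed 5′ to 3′ on the gene's strand with the bases under the peak in capitals. The promoter of Notch3 follows as a GC-rich promoter whose gene had no peak.
Maml3, chr3:52104957-52105256, minus strand: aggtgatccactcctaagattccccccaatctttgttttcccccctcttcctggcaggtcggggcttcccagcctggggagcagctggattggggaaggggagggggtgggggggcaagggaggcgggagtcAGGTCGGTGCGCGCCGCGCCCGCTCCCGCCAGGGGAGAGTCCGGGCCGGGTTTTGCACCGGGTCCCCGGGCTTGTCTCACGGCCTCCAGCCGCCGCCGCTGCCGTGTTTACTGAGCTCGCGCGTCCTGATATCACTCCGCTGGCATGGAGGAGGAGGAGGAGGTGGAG
Notch2, chr3:98013288-98013587, plus strand: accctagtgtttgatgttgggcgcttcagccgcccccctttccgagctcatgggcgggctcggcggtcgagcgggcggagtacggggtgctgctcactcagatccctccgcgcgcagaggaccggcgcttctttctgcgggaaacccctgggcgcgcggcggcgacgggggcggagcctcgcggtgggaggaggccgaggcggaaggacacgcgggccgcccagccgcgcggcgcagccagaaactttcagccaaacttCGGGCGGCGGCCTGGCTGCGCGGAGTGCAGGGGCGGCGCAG
Rbpj, chr5:53590096-53590395, plus strand: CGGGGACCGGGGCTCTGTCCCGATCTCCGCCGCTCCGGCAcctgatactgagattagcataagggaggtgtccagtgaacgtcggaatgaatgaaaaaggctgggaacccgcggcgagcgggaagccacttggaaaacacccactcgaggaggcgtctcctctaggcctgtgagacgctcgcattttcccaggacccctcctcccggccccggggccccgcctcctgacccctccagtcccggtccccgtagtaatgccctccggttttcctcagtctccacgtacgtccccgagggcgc
Notch3, chr17:32166841-32167140, minus strand: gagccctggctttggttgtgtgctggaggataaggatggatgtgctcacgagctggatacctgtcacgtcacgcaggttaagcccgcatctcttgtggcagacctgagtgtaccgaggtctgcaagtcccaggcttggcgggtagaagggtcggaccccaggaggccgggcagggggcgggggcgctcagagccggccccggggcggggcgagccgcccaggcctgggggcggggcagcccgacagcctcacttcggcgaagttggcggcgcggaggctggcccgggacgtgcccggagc
By gene this is 3 of the 9 members with a listed promoter. Among all protein-coding genes with a promoter in the table, 24.5% had a promoter that a peak overlapped by at least 1 bp and 9.35% one overlapped by at least 150 bp. Maml3 is the member that met the second rule.

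Of the 10 genes, 8 had a FOXL2 peak inside or within 50 kb, and together they held 19 peaks. The share of all protein-coding genes with a peak by the same rule was 67.5%, so the count of 8 lies near the background and is not a result about Notch genes. A peak inside the gene was held by 5 of the 10, against 36.2% of all protein-coding genes, one inside or within 10 kb by 7, against 49.6%, and one within 100 kb by 9, against 76.3%. At least 2 peaks within 50 kb were held by 6, against 42.1%. In the members' windows, 2245 kb in all, there were 0.85 peaks per 100 kb. Over all protein-coding genes the mean was 0.97 and the median 0.86 per gene. The members' value is pooled over their windows, so it is not quite the same measure. The members differed among themselves in where the peaks were. For 14 of the 19 peaks the nearest protein-coding gene border, meaning either end of a gene, was the member's own, and for the other 5 it was that of a neighbour. A peak nearest to its own border was held by 7 of the 10 genes, against 40.1% of all protein-coding genes.

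**Figure D1:**
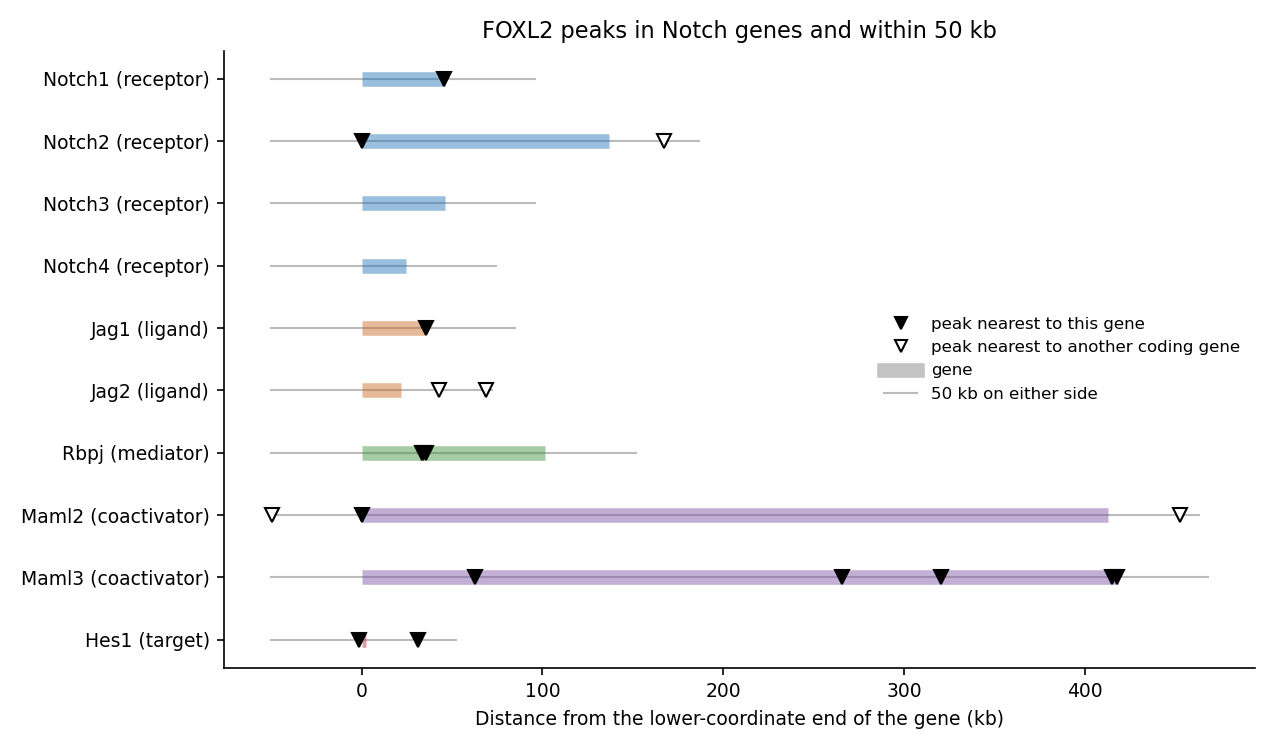
Positions of FOXL2 peaks in each gene (coloured bar) and within 50 kb (grey line), as distance in kb from the lower-coordinate end of the gene. Filled triangles are the 14 peaks nearest to the gene itself and open triangles the 5 nearest to another coding gene; Notch3 and Notch4 have none.

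The receptors split into a pair with a peak at the start and a pair without. Notch1 (chromosome 2, 26457902 to 26503822, minus strand) and Notch2 (chromosome 3, 98013538 to 98150367, plus strand) are the broadly used receptors of the family, and NOTCH2 is the one best known from granulosa cells. The peak of Notch1, at 26503442 to 26503741, had its centre 231 bp downstream of the start, inside the gene. That of Notch2, at 98013547 to 98013846, lay 158 bp downstream of the start. Both thus lay just inside the gene, within the quartile range of start peaks genome-wide. Within 1 kb of an annotated start, 38.4% of protein-coding genes had a peak, and so did 5 of the 9 members with a listed start. A further peak in the Notch2 window lay 30.6 kb beyond the gene and nearest to Adam30, which encodes a protease of the ADAM family.

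Notch3 (chromosome 17, 32120820 to 32166896), a receptor best known from vascular smooth muscle and pericytes, though not limited to them, had no peak within 100 kb. The nearest was 118 kb away, and the gene lay in a span of 429 kb between neighbouring peaks. The median distance between neighbouring peak centres was 78.4 kb, but a span that holds a given gene tends to be longer than the median. How rare a span of 429 kb around a gene is was not tested. Notch4 (chromosome 17, 34564286 to 34588543), the receptor largely of endothelium, had no peak within 50 kb. Its nearest peak was 58.9 kb away, just outside the window, and lay 278 bp inside Atf6b, which encodes a transcription factor of the unfolded protein response. Of all protein-coding genes, 7109 (32.5%) were likewise without a peak in their window. The cell types named for the receptors are background, and their relation to the peaks was not tested.

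The ligands also differed from each other. Jag1 (chromosome 2, 137081451 to 137116520, minus strand) had 1 peak, at 137116913 to 137117212, with its centre 542 bp upstream of the start. Upstream of Jag1 the next protein-coding gene, Btbd3, is 1140 kb away. This peak was the sole peak in the 1175 kb between the neighbouring protein-coding genes Slx4ip and Btbd3. Among 889 genes whose span between neighbours was within 1.5-fold of that length, the median was 1 peak as well, and 62.3% had 1 or 0. Jag2 (chromosome 12, 112907803 to 112929812), which lies among closely packed genes, had no peak nearest to it. The peaks in its window lay 20.6 and 47.0 kb away. The nearer had its centre inside the long noncoding RNA gene Gm26583, with Brf1 as the nearest coding border. The farther lay 221 bp downstream of the start of Btbd6. Brf1 encodes a subunit of the RNA polymerase III initiation factor.

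Rbpj (chromosome 5, 53555779 to 53657445), whose protein is the DNA-binding partner of all Notch receptors, held 3 peaks close together. They lay at 53589163 to 53589462, 53589836 to 53590135 and 53590992 to 53591291. Relative to the nearer of its annotated starts, at 53590346 and 53590486, their centres were 1034 bp upstream, 361 bp upstream and 655 bp downstream. The 3 peaks thus flank both starts, which lie 34.6 kb or more inside the outermost end of the gene, and the first promoter lies largely between the second and the third peak. From the first to the third centre was 1829 bp. In the whole list, 16 of 11394 runs of 3 neighbouring peaks (0.140%) were as tight or tighter. This measure was chosen after the peaks of Rbpj were seen. Of all protein-coding genes, not matched for length, 0.781% had 3 or more peaks inside the gene. Of genes with a like span between neighbours, 15.6% had 3 or more peaks in that span.

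**Figure D2:**
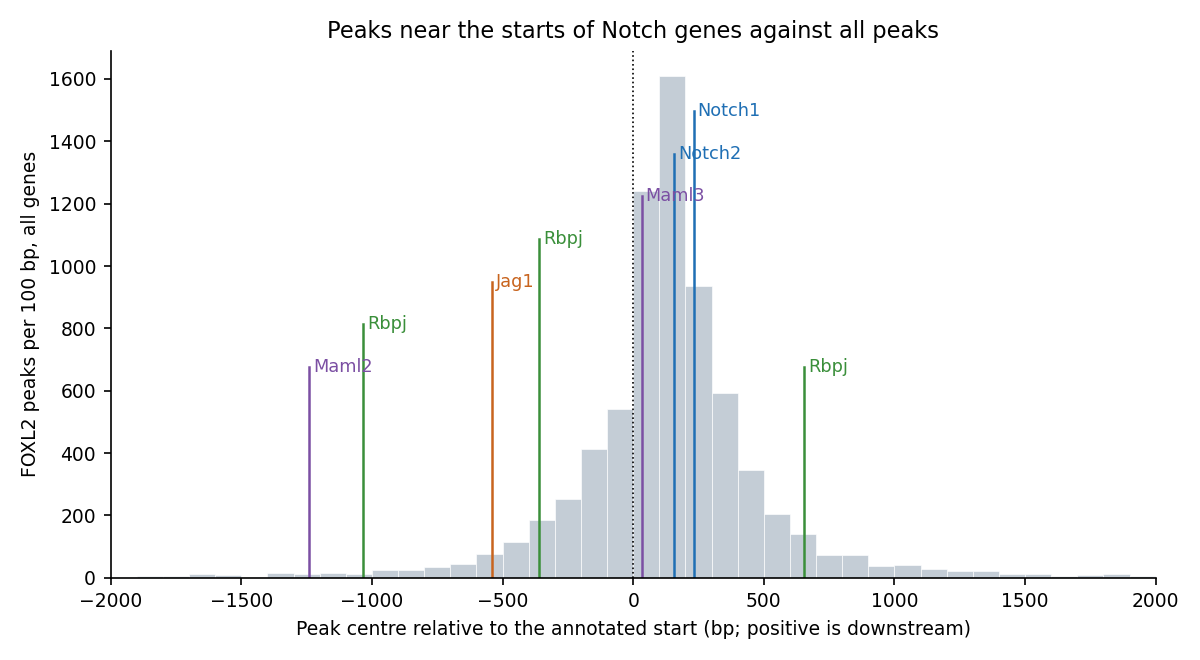
FOXL2 peaks per 100 bp by distance of their centre from the nearest annotated start, in bp along the direction of transcription (grey bars), with the peaks within 2 kb of a member's own start drawn as labelled lines whose height has no meaning. Maml3, Notch2 and Notch1 lie 32, 158 and 231 bp downstream, whereas Jag1 and 2 of the 3 Rbpj peaks lie upstream. The Maml2 peak lies 1241 bp upstream of the nearer listed start but 156 bp inside the 5′ end of the gene.

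The coactivators differed in the number of internal peaks. Maml2 and Maml3 encode Mastermind-like proteins that bridge the complex of Notch and RBPJ to the transcription machinery, and the genes are of nearly equal length, 413 and 418 kb. Maml3 (chromosome 3, 51687320 to 52105319, minus strand) held 5 peaks, all inside the gene. The centre of the peak at 52104825 to 52105124 was 32 bp downstream of the start, and that of the peak at 52102291 to 52102590 was 2.57 kb downstream. The other 3 lay far inside, 97.4, 152 and 355 kb downstream of the start, at 52007507 to 52007806, 51953090 to 51953389 and 51749931 to 51750230. Maml2 (chromosome 9, 13296561 to 13709533, plus strand) held 1 internal peak, at 13296568 to 13296867. It is 156 bp inside the outermost 5′ end of the gene and 1241 bp upstream of the nearer start in the promoter table. Its window held 2 more, 49.4 and 39.8 kb outside the gene. They lay 181 bp downstream of the start of Ccdc82 and 157 bp downstream of that of Mtmr2, a phosphoinositide phosphatase gene.

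Long genes have more room for peaks, so both were set beside genes of 300 to 600 kb. Of 404 such genes, 150 (37.1%) had no internal peak, the median was 1, and 305 (75.5%) had 1 or 0, as Maml2 did. Maml3 was 1 of 3 (0.743%) with 5 or more. The length class and this cut were not planned. The cut is Maml3's own count, the highest of the members, so the share is no independent measure of rarity. Among all protein-coding genes, 10 had 5 or more internal peaks. The genes closest to Maml3 in internal peaks and then in length included Fto and Hivep2, with 5 each over 355 and 190 kb. The others were Gm38667, Gm38666 and Gm37013, overlapping gene models of 868, 874 and 889 kb with 5 peaks each. These models lie within one another and hold the same 5 peaks, so the count of 10 genes includes those peaks more than once.

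**Figure D3:**
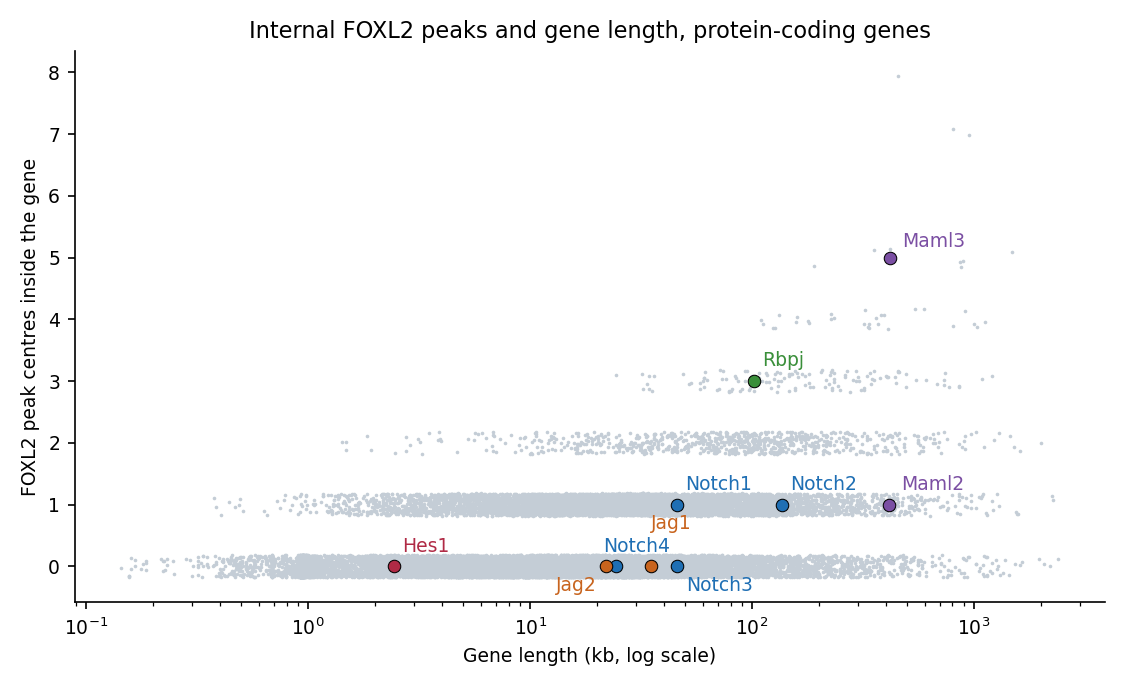
Peak centres inside each gene against gene length in kb (log scale) for 21883 protein-coding genes (grey, spread vertically for sight) and the 10 members (coloured by role). Maml3, with 5, and Maml2, with 1, have nearly the same length; Rbpj has 3, and Hes1, Jag1, Jag2, Notch3 and Notch4 have 0.

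Hes1 (chromosome 16, 30065357 to 30067796) encodes a basic helix-loop-helix repressor and is a direct target of Notch in many tissues. No peak lay inside this gene of 2.44 kb. The nearest, at 30063911 to 30064210, was 1297 bp outside its lower-coordinate end, and the second in the window, at 30096538 to 30096837, was 28.9 kb beyond the other end. Just outside the window lay peaks at 53.1 and 56.2 kb. All 4 had Hes1 as the nearest protein-coding gene. The next protein-coding genes, Opa1 and Cpn2, are 402 and 189 kb away, and the 593 kb between them held 7 peaks, the others lying 119, 226 and 251 kb from Hes1. The peak at 119 kb was nearest to Hes1, but those at 226 and 251 kb were nearest to Opa1. The span thus counts peaks that may belong to a neighbour. Of 1652 genes with a span between neighbours within 1.5-fold of 593 kb, 0.726% had 7 or more peaks, and the median was 1. Maml3 also had 7 in its span of 586 kb, a count reached by 0.718% of 1672 genes. That count includes peaks outside Maml3, among them a peak 90.9 kb beyond it that was nearest to Foxo1. By the same measure Rbpj had 3 peaks, a count reached by 15.6% of genes with a like span, Notch1 2 (22.8%), Notch2 1 (60%) and Maml2 1 (64.0%). Of the Notch1 peaks, that 53.1 kb beyond the gene was nearest to Egfl7. Notch3, Notch4 and Jag2 had 0, as did 44.9, 51.5 and 52.9% of genes with a like span. The span was added after the data were examined, and genes side by side share much of theirs. No promoter sequence was matched to Hes1, so the direction of transcription was not used.

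Promoter composition moved with the presence of a start peak across the genome, and the members were set against it. In protein-coding genes, 8.19% of promoters with under 50% GC had a peak within 1 kb of the start (511 of 6236). The share was 32.3% at 50 to 60% GC (2157 of 6679), 57.5% at 60 to 70% (3236 of 5627) and 70.6% at 70% and above (1898 of 2689). Exact 95% intervals of the lowest and the highest class were 7.53 to 8.90% and 68.8 to 72.3%. They take promoters as independent, although a gene can have several that share a peak, so they are too narrow. Among the members, Notch2 (73.0% GC), Notch1 and Maml3 (68.3% each) and Rbpj (64.7 and 67.0%) were GC-rich and had a start peak. Jag1 had one at 55.7%. Jag2 (86.0%, with 63 CpG dinucleotides) and Notch3 (70%, 25 CpG) were as GC-rich and had none. Notch4 (58.3%) and both Maml2 promoters (48.0 and 53.7%) were poorer in GC and had no peak within 1 kb. The peak at the 5′ end of Maml2 lay 1241 bp from the nearer listed start, and that end has no listed promoter. The part of base composition in the difference between members was not tested.

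**Figure D4:**
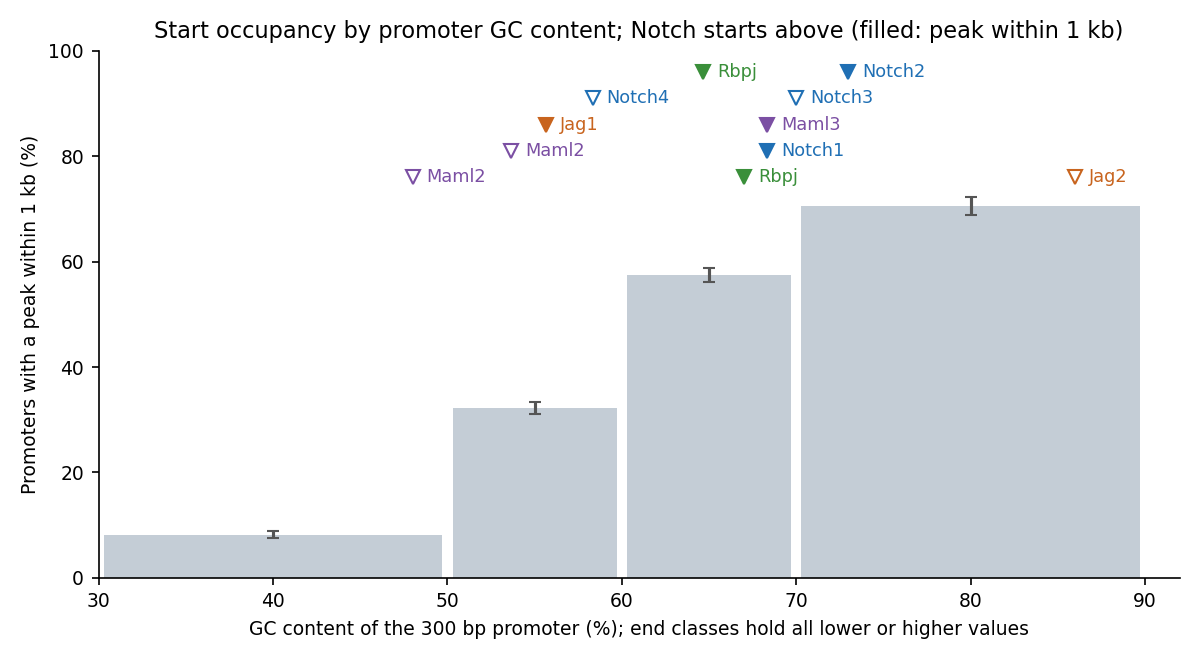
Share of promoters with a peak centre within 1 kb of the start (bars, with exact 95% intervals, promoters taken as independent) in 4 classes of promoter GC content, for protein-coding genes. Triangles mark the 11 promoters of the members at their GC content, at heights that have no meaning; Jag2 at 86.0% and Notch3 at 70% are open, meaning no peak, in the class where 70.6% had one.

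Letters of known motifs were searched in the 11 promoters on both strands. The forkhead motif TGTTTAC, whose reverse complement is GTAAACA, was found in 2 of them, against 3.65% of all 32817 distinct promoters. In Maml3 it lay under the peak, 14 bp upstream of the start and 43 bp from the peak centre. In Maml2 it lay 225 bp upstream of a start and 1019 bp from the centre of the nearest peak. Both are shown with 15 bases on either side and the motif in capitals.
Maml3, chr3:52105014-52105020, motif position: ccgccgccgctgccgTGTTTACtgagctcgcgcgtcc
Maml2, chr9:13297733-13297739, motif position: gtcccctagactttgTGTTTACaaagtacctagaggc
Promoters covered by a peak over at least 150 bp held TGTTTAC in 126 of 2073 cases (6.08%), and those without any overlap in 3.66% of 27454. The median GC content of these groups was 65.7% and 50.7%. The shorter core TGTTT was found in 6 member promoters, 50.5% of all promoters, 33.8% of covered ones and 53.9% of those without overlap.

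The RBPJ motif TGGGAA occurred in 4 of the 11 promoters and in 25.6% of all. It was present at both starts of Rbpj itself, where the promoters overlap and share a match, and at Maml3 and Maml2. The longer GTGGGAA was in none of the 11 and in 6.39% of all. The matches in the Rbpj promoter lay 149 and 65 bp upstream of the first start, the latter read on the opposite strand. They fell between the second and the third peak, 214 and 298 bp from the nearest peak centre.
Rbpj, chr5:53590197-53590202, motif position: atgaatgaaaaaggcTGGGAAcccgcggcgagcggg
Rbpj, chr5:53590281-53590286, motif position: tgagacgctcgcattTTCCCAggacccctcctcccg
The FOXL2 response element core GTCAAGG, the NR5A motif TCAAGGTCA, the RUNX motif TGTGGTT, the GATA motif AGATAA and the HES E-box CACGTG matched none of the 11. Their shares over all promoters were 3.18, 0.424, 5.27, 11.2 and 7.15%. The HES N-box CACNAG was found in 4 member promoters and in 42.5% of all, which does not set the members apart. These are letters in a window of 300 bp, not sites of binding, and most peaks of the members lay outside the windows.

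The other genes of the pathway were read from a list of 50, covering ligands, nuclear cofactors, glycosylation, receptor cleavage, trafficking and turnover, and targets. Of these, 47 (94.0%) had a peak inside or within 50 kb, with a median of 2 peaks, against 67.5% of all protein-coding genes. Dner, Hey1 and Gata2 had none. With peaks nearest to the gene itself the count was 32 (64.0%, against 40.1%), and inside the gene it was 27 (54.0%, against 36.2%). The part that gene density and promoter GC content have in these shares was not tested. The list was chosen with earlier results of these data known.

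The counts by function are set against the 40.1% of all protein-coding genes with a peak of their own. Among the 8 nuclear cofactors, 7 had one (87.5%). Spen, a corepressor that binds RBPJ, had 4. They lay 799 bp, 2.13 kb and 32.2 kb downstream of the start and 7.90 kb upstream of it. Maml1, the third Mastermind-like gene, had a peak 360 bp downstream of its start. Of 9 genes for receptor cleavage 7 had a peak of their own (77.8%), and Furin, the convertase that cuts the receptor during its maturation, had 2, at 294 bp upstream and 555 bp downstream of a start. Of 12 genes for trafficking and turnover 10 had one (83.3%). Neurl1a, a ubiquitin ligase gene of the pathway, had 2, at 651 and 49950 bp downstream of the start. Of the 5 fringe and glycosylation genes 1 had a peak of its own (20%), Poglut1, at 135 bp downstream of the start. Its enzyme adds glucose to the receptor. Rfng had a peak 481 bp upstream of its start, but the border of another gene was nearer to that peak. By starts, 2 of the 5 genes had a peak within 1 kb.

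Further ligands and targets were near that background share. Of 6 further ligands 3 had a peak of their own (50%). Dll1 had 2, at 6 and 737 bp downstream of its start. Of 10 targets 4 did (40%), among them Hes6, with a peak 23 bp downstream of its start, and Hey2, with a peak 323 bp upstream.

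**Figure D5:**
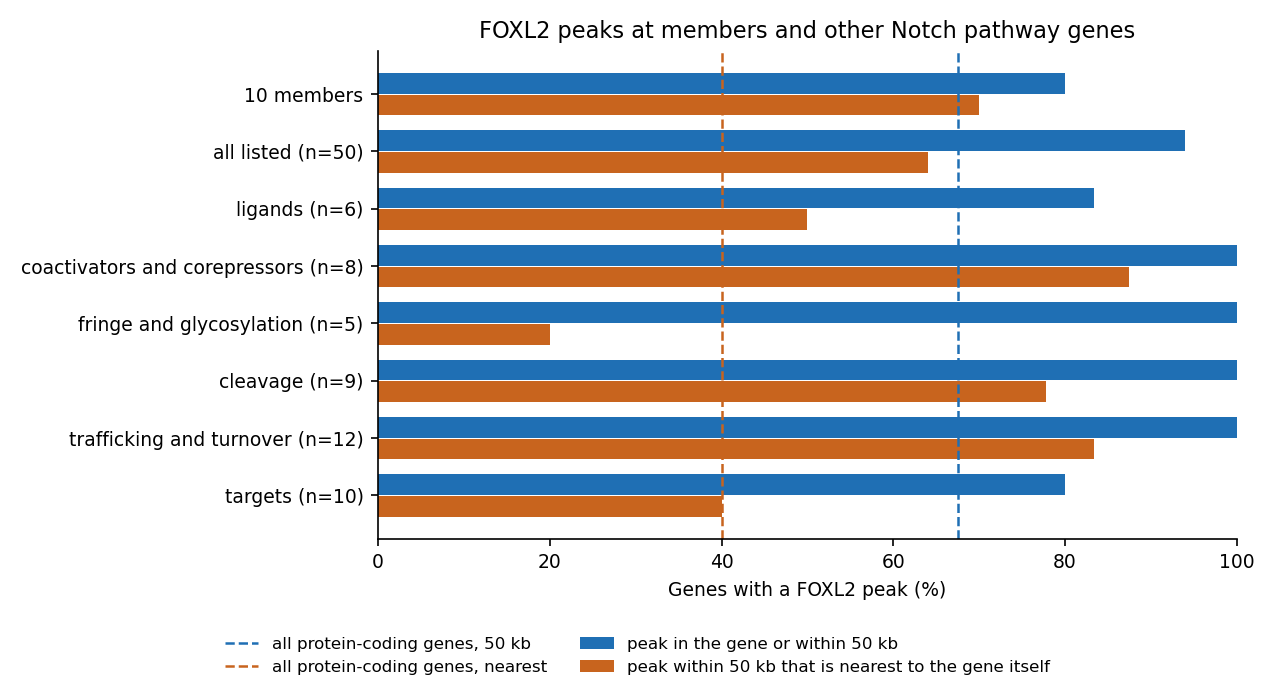
Share of genes (in %) with a FOXL2 peak inside or within 50 kb (blue) and with such a peak nearest to the gene itself (orange), for the 10 members and the other listed pathway genes by function, with the number of genes in brackets. Dashed lines give all protein-coding genes, 67.5% and 40.1%; the fringe and glycosylation genes have peaks nearby in 5 of 5 cases and nearest to themselves in 1.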

How the data were processed

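The data deposited by the authors are peak positions in bp on mm10 (no other unit), in 1 list that the labels of both FOXL2 ChIP samples name. It has neither header nor score. Per the submitters' processing notes, Bowtie 1.2, Picard 1.110, bedtools 2.24.0 and HOMER 4.9 were used. How each was used, which threshold set the peaks and how replicates and inputs were handled is not given in the sources used here. Samples were grouped by title.

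Starts were converted to 1-based positions and peak centres counted with Python 3.11.15, numpy 2.4.6 and pandas 2.3.3. Genes, promoters and starts came from RefSeq tables of GRCm38.p6. Starts were listed for 17491 of 21883 protein-coding genes, and 350 peaks on a chromosome without listed starts were left out where starts are used. Sequences were searched by exact letters. Counting was tested on simulated data. The 10 members, the pathway list and the measures were chosen with earlier results of these data known. All members are named. Of the pathway list those with at least 3 peaks of their own, and the gene with the most in each sub-list (of tied genes the shortest), are named. Maml1, Hey2, Rfng and genes without a peak were added after their values were seen. The planned comparison over promoters was limited to listed promoters.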

Additional observations from a re-analysis of the deposited data

How the results depend on the processing

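The counts follow the window. With peaks inside the gene alone, 5 members had a peak in place of 8, the members' peaks numbered 11 in place of 19, and 27 of the 50 other pathway genes had a peak in place of 47. With 100 kb beyond either end, the members' peaks numbered 29. A promoter overlap of at least 150 bp left 1 member promoter in place of 3. Of 16 alternatives for summed counts 11 stayed within 1.5 times, including counting any base of a peak and merging peaks within 500 bp. Merging was tried only for the number of members with a peak. It could not change that number, since the closest of their peaks were 673 bp apart, at Rbpj. For single genes and motifs 36 of 55 did. The longer RBPJ letters were tried as an alternative after the data were examined. No paired analysis was possible because the list holds no value per replicate, and for the same reason no replicate could be left out.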

Other observations

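Noncoding genes lie beside some of these peaks. The long noncoding RNA gene Gm35978 starts next to Notch1 on the other strand, and the Notch1 start peak overlapped its promoter by 65 bp, with its centre 336 bp from that start. In the Hes1 region, the peak 56.2 kb from Hes1 lay 462 bp from the start of the long noncoding RNA gene 4632428C04Rik, and the peak 251 kb away lay 375 bp from the start of Gm46567. The peaks 1.30, 28.9 and 53.1 kb from Hes1 were 55.4, 88.0 and 71.7 kb from the nearest start listed in the promoter table, which does not hold one for Hes1.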
